A study of Mus musculus with 8 samples.

Results

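The SLC25 genes encode the mitochondrial carriers, the family of transport proteins that move nucleotides, phosphate, carboxylates, amino acids and cofactors across the inner mitochondrial membrane. The members described here are the genes named Slc25a followed by a number, leaving out the 4 aspartate/glutamate and glutamate carriers Slc25a12, Slc25a13, Slc25a18 and Slc25a22. That gave 43 of the 23845 genes in the deposited table, and 35 of the 43 had a mean of at least 1 TPM and were tested. TPM is the share of a library's transcripts that comes from a gene, corrected for its length and scaled so that each library has the same total.

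Carriers are made in the cytosol from nuclear genes and are inserted into the inner membrane by the TOM70 receptor and the TIM22 complex. The ADP/ATP carriers and the phosphate carrier supply ATP synthase and export its product, which neurons use for ion pumping and transmission. Other carriers bring in the cofactors and glutathione that the matrix cannot make for itself.

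The cells were hippocampal neurons of mouse embryos (embryonic day 19) grown in primary culture. At 13 to 15 days in vitro they were infected with a lentivirus carrying either a hairpin against CNOT7, a deadenylase of the CCR4-NOT complex that shortens poly(A) tails, or a scrambled hairpin, and they were 17 to 19 days in vitro when profiled. Poly(A) RNA bound to poly(U) agarose was eluted at 75 °C, either whole (total) or after a wash at 50 °C that, per the labels, takes off tails under 50 nucleotides (long tails). There were 4 groups of 2 libraries each: knockdown total, scrambled total, knockdown long tails and scrambled long tails. Every group carried a lentiviral hairpin, and the mouse strain is not stated. Separate cultures or animals behind the 2 libraries of a group are not stated either, and each p-value then covers just the spread between these libraries, which may be technical.

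The read depth behind the values is unknown. Cnot7 itself was at 12 and 16 TPM in knockdown total libraries, against 42 and 36 TPM in scrambled total libraries, and at 9 and 11 TPM in knockdown long tails, against 28 and 31 TPM in scrambled long tails. The ribosomal RNA precursor Rn45s took between 2.898% and 18.56% of a library, and the lowest share was in knockdown long-tail library 2. The libraries of that group correlated at r = 0.966 across genes, against 0.982 to 0.985 in the other groups. Summed TPM of 10 neuron markers lay between 4336 and 6247, so the label of neurons fitted its markers, but glial markers were also present. The 8 astrocyte markers summed to between 3125 and 5790 TPM, above the neuron markers in scrambled long-tail library 1 (4488 against 4414 TPM). The 11 oligodendrocyte lineage markers summed to between 1069 and 1997 TPM. The word neurons below names these cultures, glia included. The 8 microglia markers summed to between 1 and 10 TPM, with Aif1, Cx3cr1, Tmem119 and Itgam listed at 0 in every library. The 7 endothelial and mural markers summed to between 165 and 333 TPM, with Cldn5 and Pecam1 listed at 0 in every library and the endothelial gene Kdr at 6 to 20 TPM. In such bulk RNA, fewer cells of a type and less RNA per cell cannot be told apart.

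The family spanned a wide range of levels, and a few carriers of energy metabolism made up most of it. The summed TPM of the 43 genes was 3090 and 2774 in knockdown total libraries, against 3257 and 3062 in scrambled total libraries. It was 2698 and 3426 in knockdown long tails, against 2847 and 3268 in scrambled long tails. The groups overlapped in both fractions, and the library with the highest sum was the one with the lowest share of Rn45s, whose part in this was not tested. Over the 8 libraries, 7 members had a mean of at least 100 TPM, 19 a mean from 10 to under 100 TPM, 9 a mean from 1 to under 10 TPM and 8 a mean under 1 TPM.

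**Figure D1:**
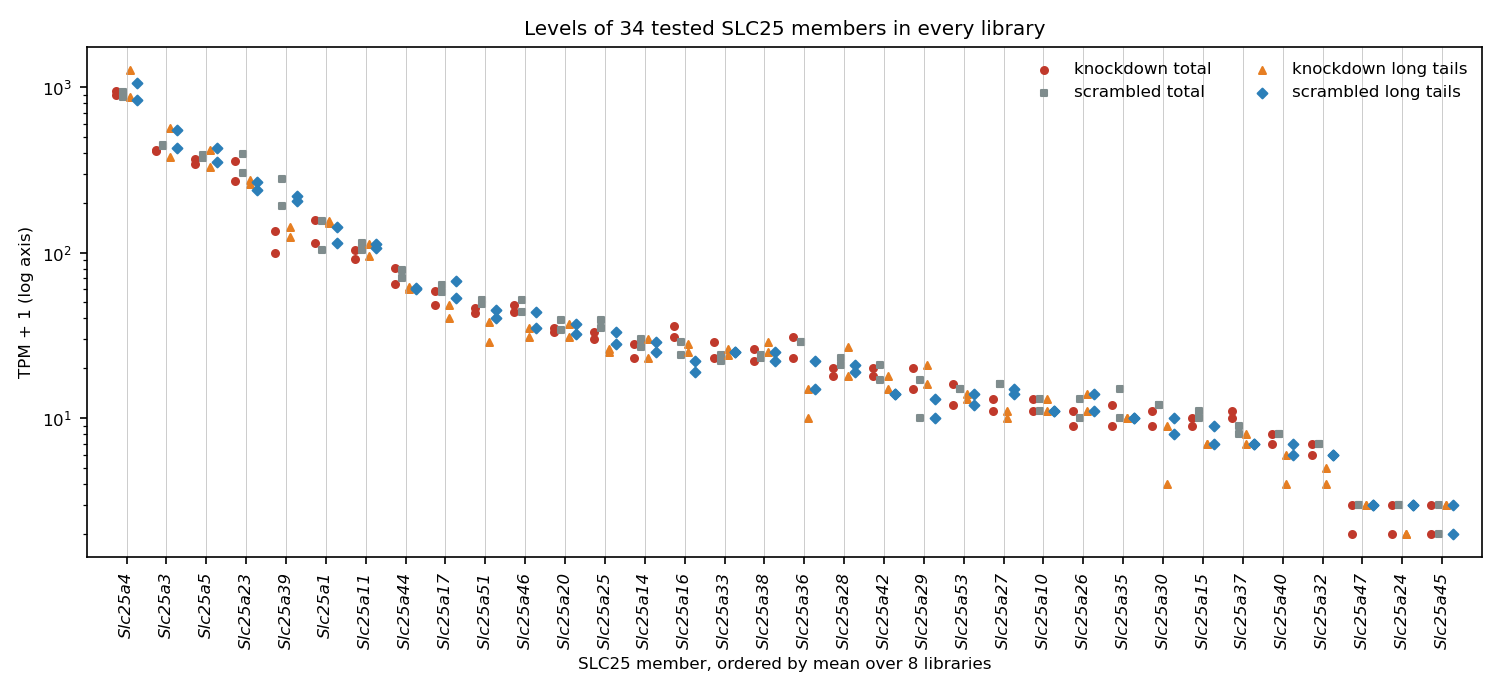
Of the 35 tested SLC25 members, 34 are plotted in every library as TPM + 1 on a log axis, in order of their mean over 8 libraries, with 1 point per library and a colour and shape per group. Slc25a4 leads at a mean of 959.5 TPM, and the knockdown points lie below the scrambled points for Slc25a39 in both fractions.

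Among the nucleotide and phosphate carriers, Slc25a4, Slc25a3 and Slc25a5 had the highest levels of the family. Slc25a4, the ADP/ATP carrier of excitable tissues, took 31.43% of the family's TPM, with 942 and 899 TPM in knockdown total libraries, against 866 and 940 TPM in scrambled total libraries. In long tails it had 866 and 1266 TPM in knockdown libraries, against 832 and 1065 TPM in scrambled libraries. The groups overlapped in both fractions.

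Slc25a3, the mitochondrial phosphate carrier, had 416 and 413 TPM in knockdown total libraries, against 439 and 448 TPM in scrambled total libraries, with 376 and 565 TPM in knockdown long tails, against 427 and 552 TPM in scrambled long tails. Slc25a5, the second ADP/ATP carrier, had 368 and 343 TPM in knockdown total libraries, against 373 and 388 TPM in scrambled total libraries, with 328 and 414 TPM in knockdown long tails, against 354 and 427 TPM in scrambled long tails. For both, the total libraries did not overlap but the difference was small, −0.10 on the log2(TPM + 1) scale in each (SE 0.227 for Slc25a3 and 0.161 for Slc25a5), and the long-tail libraries overlapped. The third ADP/ATP carrier Slc25a31, known from testis, was listed at 0 in every library.

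The ATP-Mg/phosphate carriers were present at very different levels. Slc25a23 had 356 and 269 TPM in knockdown total libraries, against 395 and 302 TPM in scrambled total libraries, and its groups overlapped. Slc25a25 had 32 and 29 TPM in knockdown total libraries, against 38 and 34 TPM in scrambled total libraries. In long tails Slc25a25 had 25 and 24 TPM in knockdown libraries, against 27 and 32 TPM in scrambled libraries, so it was lower with no overlap in both fractions. Slc25a24 was at 1 or 2 TPM in every library, and Slc25a41 and Slc25a54 were listed at 0. The pyrimidine nucleotide carriers Slc25a33 and Slc25a36 averaged 23.75 and 20.75 TPM over the 8 libraries, and the peroxisomal member Slc25a17 averaged 53.6 TPM.

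The carboxylate carriers Slc25a1 (citrate), Slc25a11 (oxoglutarate and malate) and Slc25a10 (dicarboxylates) averaged 135.6, 103.8 and 10.75 TPM, while Slc25a21, which carries oxodicarboxylates, was at 0 or 1 TPM. Slc25a1 had 157 and 113 TPM in knockdown total libraries, against 154 and 103 TPM in scrambled total libraries. In long tails it had 149 and 155 TPM in knockdown libraries, against 141 and 113 TPM in scrambled libraries. Its groups overlapped in total RNA and not in long tails, where the difference was 0.27 (SE 0.256, adjusted p = 0.746 by limma).

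Among amino acid and acylcarnitine carriers, the branched-chain amino acid carrier Slc25a44 averaged 66.1 TPM, the carnitine/acylcarnitine carrier Slc25a20 33.75 TPM and the glycine carrier Slc25a38 23.5 TPM. Slc25a29, a carrier of basic amino acids, averaged 14.25 TPM, and the ornithine carriers Slc25a15 and Slc25a2 averaged 7.75 and 0.125 TPM. Of the cofactor, glutathione and iron carriers, Slc25a39 was highest at 173.2 TPM, and its relative in glutathione import, Slc25a40, averaged 5.75 TPM. The NAD carrier Slc25a51 averaged 41.75 TPM, Slc25a16 (linked to coenzyme A) 25.75 TPM and the coenzyme A carrier Slc25a42 16.1 TPM. The iron carriers Slc25a28 and Slc25a37 averaged 19.9 and 7.38 TPM, the S-adenosylmethionine carrier Slc25a26 10.6 TPM and Slc25a32, known for folate and flavin transport, 5 TPM.

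The uncoupling-protein-like members Slc25a14, Slc25a27 and Slc25a30 averaged 25.9, 12.25 and 8.38 TPM. Slc25a46, which sits in the outer membrane and acts in mitochondrial dynamics, averaged 40.6 TPM. The less characterised Slc25a53 and Slc25a35 averaged 12.9 and 9.75 TPM, Slc25a47 and Slc25a45 averaged 1.88 and 1.63 TPM, and Slc25a43, Slc25a48 and Slc25a34 were at 0 or 1 TPM. The deposited TPM are whole numbers, so for members of a few TPM a step of 1 TPM is a large part of any difference.

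The knockdown comparison asks which carrier mRNAs differed after CNOT7 was lowered. In total RNA, Slc25a39, Slc25a27 and Slc25a25 were among 8 members that were lower in knockdown neurons with no overlap between libraries. Slc25a16 and Slc25a37 were the 2 members that were higher with no overlap. Slc25a39 was the single member in the authors' deposited tables. Limma called 0 of the 35 members at an adjusted p under 0.05, and it called 0% of the 13681 tested genes. The targeted gene Cnot7 was not called either, at −1.42 in total RNA and −1.48 in long tails (adjusted p = 0.153 and 0.173 by limma). A lack of calls thus does not show a lack of difference. At an unadjusted p under 0.05 there were 0 higher and 2 lower members (Slc25a39 and Slc25a27), where 6.34% of all tested genes passed, 2.05% higher and 4.3% lower.

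Of the 35 tested members, 8 were higher, 25 lower and 2 equal in knockdown total RNA, with a median difference of −0.11, against −0.07 over all tested genes. There was no overlap between libraries for 8 lower members (22.9%) and 2 higher members (5.71%), where the shares of all tested genes were 20.1% and 8.68%. These shares lay near those of all genes.

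**Figure D2:**
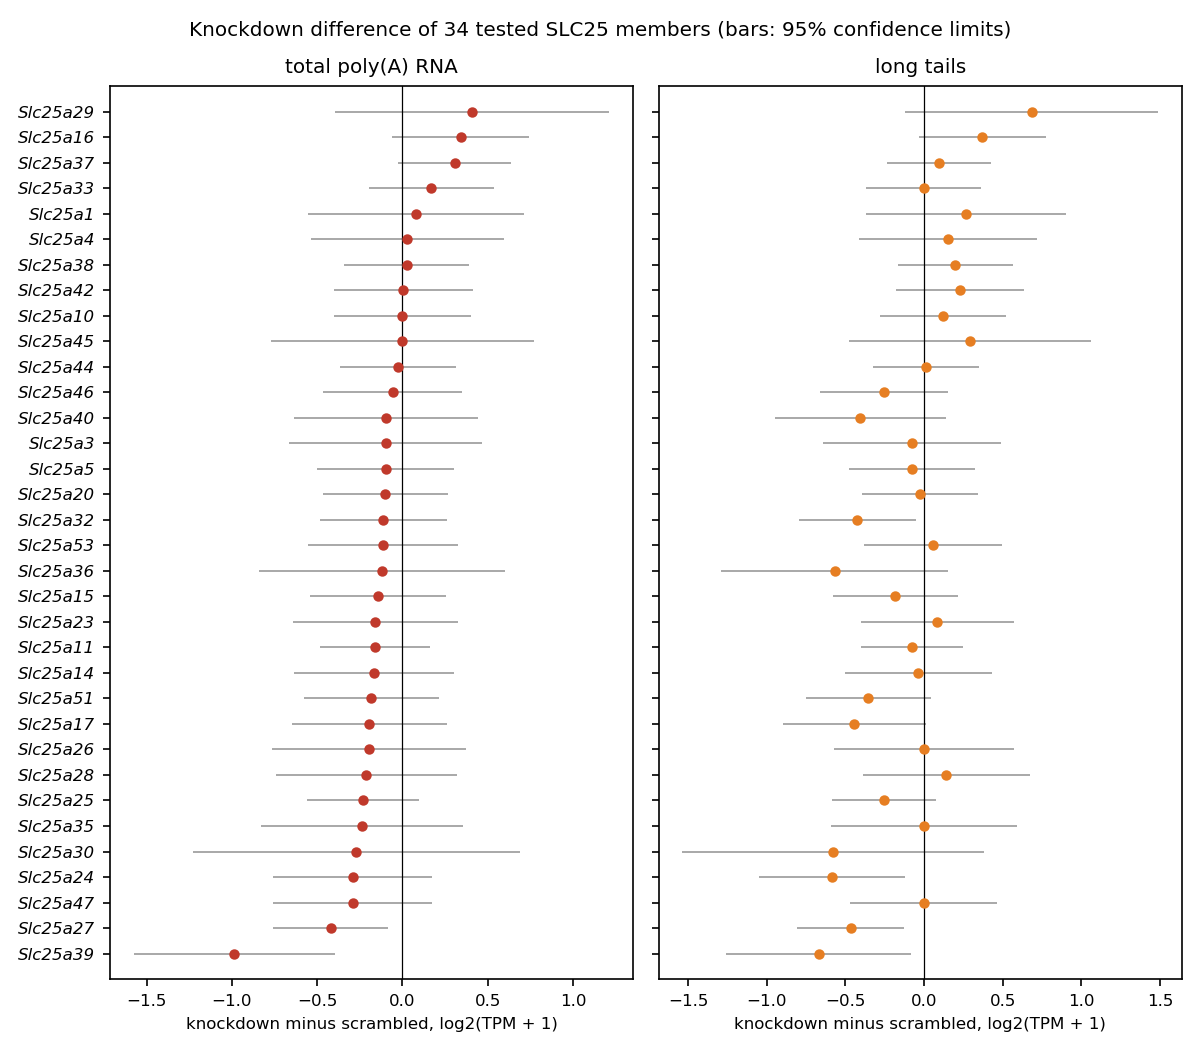
Points give the knockdown minus scrambled difference on the log2(TPM + 1) scale for 34 of the 35 tested members, in total poly(A) RNA (left) and long tails (right), and bars give 95% confidence limits from limma. Slc25a39 lies lowest in both, at −0.99 in total RNA and −0.67 in long tails.

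Slc25a39, a carrier needed for glutathione import into mitochondria (chromosome 11, 102402985 to 102407946, minus strand, GRCm38), had the largest difference of the family in total RNA. It had 135 and 98 TPM in knockdown total libraries, against 276 and 190 TPM in scrambled total libraries. Both knockdown libraries lay below both scrambled ones. The means were 116.5 ± 26.2 TPM in knockdown and 233 ± 60.8 TPM in scrambled neurons (SD, n = 2 libraries each), a difference of −0.99 (SE 0.237, adjusted p = 0.506 by limma over all genes). The authors' deposited table of the total RNA comparison has Slc25a39, which fell by 0.74 on the log2 scale (adjusted p = 0.0394). The authors' deposited table lists 32 genes as lower, 0.234% of the number tested here, and 72 as higher, 0.526%.

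In long tails Slc25a39 had 123 and 142 TPM in knockdown libraries, against 219 and 203 TPM in scrambled libraries. The groups again did not overlap. The difference was −0.67 (SE 0.237, adjusted p = 0.544 by limma), and the authors' deposited table of the long-tail comparison lists 0 members, with 34 genes lower (0.249%) and 63 higher (0.46%). The difference between the fractions was 0.32 with 95% limits from −0.52 to 1.15, and its adjusted p was 1.00. Oligodendrocyte lineage markers were lower too, in 11 of 11 members in each fraction, with a summed TPM of 1258 and 1245 in knockdown total libraries, against 1988 and 1833 in scrambled total libraries. Their sum was 1069 and 1358 in knockdown long tails, against 1591 and 1997 in scrambled long tails. Astrocyte markers were lower in 7 of 8 members in total RNA, with overlapping sums of 5701 and 3660 in knockdown, against 5790 and 4548 in scrambled libraries. In long tails 6 of 8 were lower, with overlapping sums of 4359 and 3125 in knockdown, against 4488 and 3908 in scrambled libraries. Of 10 neuron markers, 5 were higher and 5 lower in total RNA, and 6 higher and 4 lower in long tails. Of all 13681 tested genes, 8235 were lower in total RNA and 8379 in long tails. The part of glial cells in the Slc25a39 values was not tested.

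The uncoupling-like carrier Slc25a27, known as UCP4 and enriched in brain, had 12 and 10 TPM in knockdown total libraries, against 15 and 15 TPM in scrambled total libraries. In long tails it had 9 and 10 TPM in knockdown libraries, against 13 and 14 TPM in scrambled libraries. It was lower in knockdown with no overlap in both fractions. The total RNA difference was −0.42 and the long-tail one −0.47 (SE 0.136 for both, adjusted p = 0.671 and 0.503 by limma).

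Slc25a51, the NAD carrier, had 45 and 42 TPM in knockdown total libraries, against 51 and 48 TPM in scrambled total libraries. In long tails it had 37 and 28 TPM in knockdown libraries, against 39 and 44 TPM in scrambled libraries. With Slc25a25, Slc25a27 and Slc25a39 it was 1 of 4 members (11.4%) that were lower with no overlap in both fractions, where 9.49% of all tested genes were.

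Slc25a16 was the 1 member (2.86%) that was higher with no overlap in both fractions, where 2.71% of all tested genes were. It had 35 and 30 TPM in knockdown total libraries, against 28 and 23 TPM in scrambled total libraries. In long tails it had 27 and 24 TPM in knockdown libraries, against 18 and 21 TPM in scrambled libraries. The differences were 0.34 and 0.37 (SE 0.162 in each, adjusted p = 0.875 and 0.586 by limma), and the first was 0.204 without scrambled total library 2.

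The basic amino acid carrier Slc25a29 had 19 and 14 TPM in knockdown total libraries, against 16 and 9 TPM in scrambled total libraries. In long tails it had 20 and 15 TPM in knockdown libraries, against 12 and 9 TPM in scrambled libraries. The groups overlapped in total RNA and not in long tails, where the difference of 0.69 (SE 0.323, adjusted p = 0.610 by limma) was the largest upward one of the family. The iron carrier Slc25a37 had 9 and 10 TPM in knockdown total libraries, against 8 and 7 TPM in scrambled total libraries (difference 0.31, SE 0.133, adjusted p = 0.835 by limma).

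**Figure D3:**
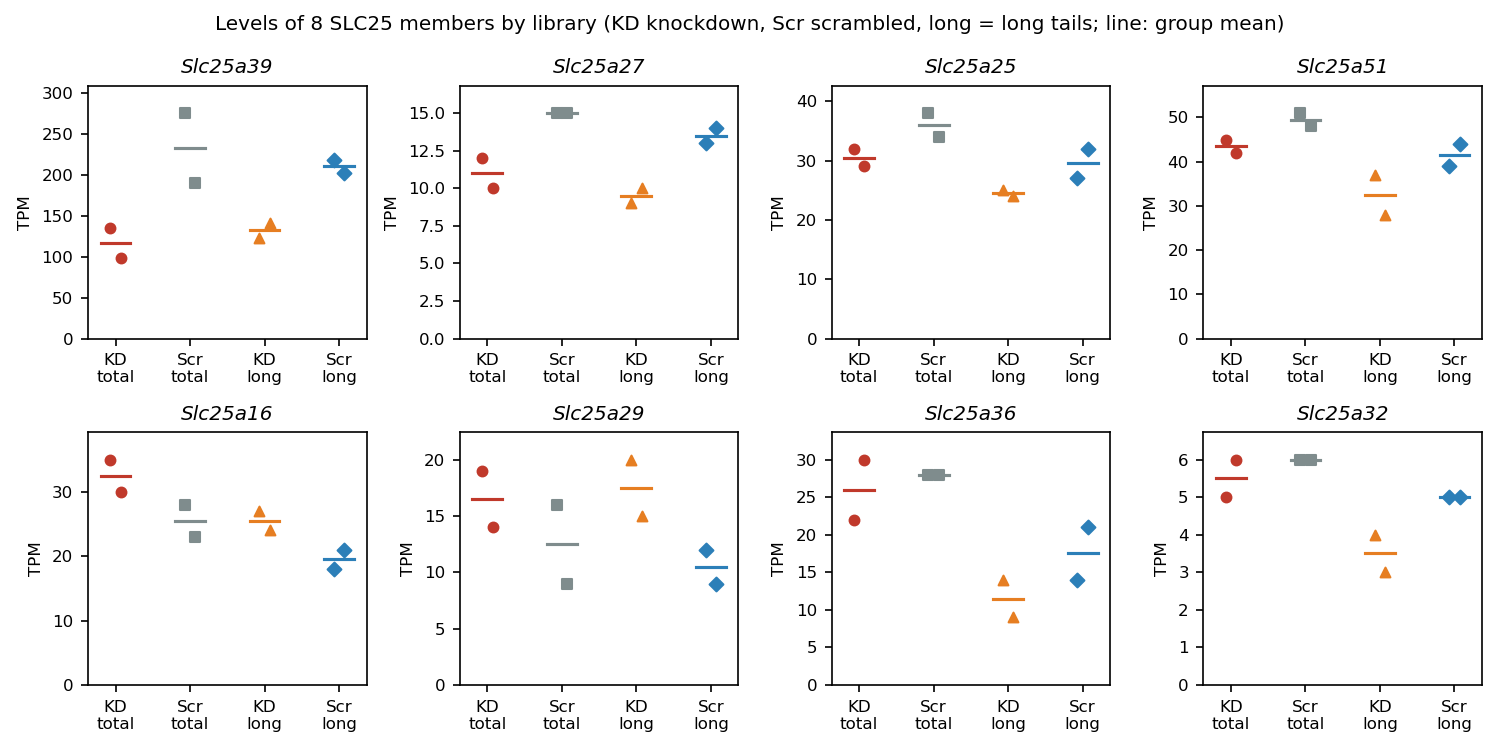
TPM in every library is shown for 8 members, with points for libraries and a line for the mean of each group of 2, on axes that start at 0. The knockdown points lie below the scrambled points of the same fraction for Slc25a39, Slc25a27, Slc25a25 and Slc25a51, and above them for Slc25a16.

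In long tails, 13 of the 35 tested members were higher, 19 lower and 3 equal in knockdown neurons. The median difference was −0.01, against −0.10 over all tested genes. Limma called 0 of 35, and it called 0% of all tested genes. At an unadjusted p under 0.05 there were 0 higher and 4 lower members (Slc25a27, Slc25a24, Slc25a32 and Slc25a39), where 8.72% of all tested genes passed, 2.25% higher and 6.47% lower. There was no overlap for 7 lower members (20%) and 4 higher members (11.4%), near the 17.1% and 8.91% of all tested genes.

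Slc25a32 had 4 and 3 TPM in knockdown long tails, against 5 and 5 TPM in scrambled long tails, and in total RNA 5 and 6 TPM in knockdown, against 6 and 6 TPM in scrambled libraries. Slc25a24 had 1 and 1 TPM in knockdown long tails, against 2 and 2 TPM in scrambled long tails. Both differences are of 1 or 2 units of the rounded table. Slc25a17, which carries cofactors into peroxisomes, had 39 and 47 TPM in knockdown long tails, against 52 and 66 TPM in scrambled long tails, without overlap (difference −0.44, SE 0.182, adjusted p = 0.578 by limma). Slc25a42 had 14 and 17 TPM in knockdown long tails, against 13 and 13 TPM in scrambled long tails (difference 0.23, SE 0.164, adjusted p = 0.671 by limma). Without knockdown long-tail library 2 the difference was 0.0995, and without library 1 it was 0.363.

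By role, the uncoupling-like carriers were lower in 3 of 3 members in both fractions, with median differences of −0.27 in total RNA and −0.47 in long tails. The cofactor, glutathione and iron carriers were lower in 7 of 10 members in total RNA (median −0.15) and in 5 of 10 in long tails (median −0.01). The nucleotide and phosphate carriers were lower in 7 of 9 tested members in each fraction (medians −0.12 and −0.08). Of 3 tested carboxylate carriers 1 was lower in each fraction. Most genes leaned the same way: of all 13681 tested, 8235 were lower in total RNA (median −0.07) and 8379 in long tails (median −0.10). No role group had a member called by limma, against 0% of all genes.

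The comparison of long tails with total RNA asks how the share of each mRNA differed between the fractions. It is a difference in shares, not a tail length. In knockdown neurons 14 of the 35 tested members were higher, 20 lower and 1 equal in long tails, with a median of −0.05, which was 0.124 with quantile normalization. In scrambled neurons 7 were higher, 25 lower and 3 equal, with a median of −0.14, which was 0.0622 with quantile normalization. Over all tested genes the median was −0.22 in each, and 22 of 35 members in knockdown and 21 of 35 in scrambled neurons lay above it. Limma called 0 members and 0% of all genes in each comparison. At an unadjusted p under 0.05, 7 members were lower in knockdown and 2 in scrambled neurons, where 25.1% and 12.9% of all genes were, and 0 members were higher, where 0.921% and 0.263% of all genes were.

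Slc25a36, a carrier of pyrimidine nucleotides, differed most between the fractions. It had 14 and 9 TPM in knockdown long tails, against 22 and 30 TPM in knockdown total libraries. In scrambled neurons it had 14 and 21 TPM in long tails, against 28 and 28 TPM in total libraries. The fractions did not overlap in either. The differences were −1.12 in knockdown and −0.67 in scrambled neurons (SE 0.29 in each, adjusted p = 0.140 and 0.382 by limma).

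Slc25a37 had 7 and 6 TPM in knockdown long tails, against 9 and 10 TPM in knockdown total libraries, and 6 and 6 TPM in scrambled long tails, against 8 and 7 TPM in scrambled total libraries. Slc25a15 had 6 and 6 TPM in knockdown long tails, against 8 and 9 TPM in knockdown total libraries, and 6 and 8 TPM in scrambled long tails, against 10 and 9 TPM in scrambled total libraries. These and 7 others (Slc25a16, Slc25a25, Slc25a32, Slc25a36, Slc25a40, Slc25a44 and Slc25a51) made 9 members (25.7%) that were lower in long tails with no overlap in both kinds of neuron, where 29.4% of all tested genes were.

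Lower in long tails in scrambled neurons were also Slc25a42, with 13 and 13 TPM in long tails, against 20 and 16 TPM in total libraries, and Slc25a23, with 266 and 238 TPM in long tails, against 395 and 302 TPM in total libraries. The differences were −0.43 (SE 0.164, adjusted p = 0.377) and −0.46 (SE 0.196, adjusted p = 0.382 by limma), and without scrambled total library 1 they were −0.28 and −0.262. Their libraries overlapped in knockdown neurons. In all, libraries did not overlap for 10 lower members (28.6%) in knockdown and 14 (40%) in scrambled neurons, where 40% and 39.6% of all tested genes were lower without overlap.

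In both kinds of neuron together, 0 members were higher in long tails without overlap, where 1.35% of all tested genes were. In knockdown neurons 0 members were, where 4.04% of all tested genes were. In scrambled neurons 1 member, Slc25a33, was, with 24 and 24 TPM in long tails, against 23 and 21 TPM in total libraries, where 4.69% of all tested genes were. Among the members higher in mean, the S-adenosylmethionine carrier Slc25a26 had 10 and 13 TPM in knockdown long tails, against 10 and 8 TPM in knockdown total libraries (difference 0.32, SE 0.229, adjusted p = 0.426 by limma). It ran from 0.145 without knockdown long-tail library 2 to 0.493 without library 1, and was 0.174 without knockdown total library 2. Slc25a38 had 24 and 28 TPM in knockdown long tails, against 25 and 21 TPM in knockdown total libraries, which overlap. Slc25a47, a less characterised member, had 2 and 2 TPM in knockdown long tails, against 2 and 1 TPM in knockdown total libraries, a step of 1 unit of the rounded table. The abundant Slc25a3 was 0.15 higher in long tails in knockdown and 0.13 higher in scrambled neurons (SE 0.227 in each).

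The 9 members that were lower in long tails without overlap in both kinds of neuron had longer 3′ untranslated regions by median than the other members. This was looked at after the values were seen, and it uses the annotated transcript with the longest coding sequence (GENCODE M21, GRCm38). Of the 35 tested members, all of which had such a region, the longest were those of Slc25a32 (4739 nucleotides), Slc25a36 (4085) and Slc25a51 (3318), and the shortest those of Slc25a28 (325), Slc25a5 (263) and Slc25a3 (172). The median length was 2306 nucleotides in the 9 members and 743.5 in the 26 others. Some members with short regions were also lower in mean in both kinds of neuron, such as Slc25a17 (718 nucleotides) and Slc25a35 (393).

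Split at the family's median of 1012 nucleotides, 16 of 17 members with longer regions and 4 of 18 with shorter ones were lower in long tails than in total RNA in knockdown neurons. Their median differences were −0.34 for the longer and 0.12 for the shorter. In scrambled neurons 16 of 17 and 9 of 18 were lower, with medians of −0.29 and −0.00. Over all tested genes split at the same length, 5415 of 6237 longer and 3224 of 6202 shorter ones were lower in knockdown neurons. In scrambled neurons 5605 of 6237 and 3786 of 6202 were. Across the 35 members, Spearman's rho between the length and the difference was −0.772 in knockdown and −0.688 in scrambled neurons. Genes are not independent replicates, and all points share the same 8 libraries.

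The same relation was present over all genes, so it is not particular to the carriers. Over the 12439 tested genes with such a region, rho was −0.507 in knockdown and −0.458 in scrambled neurons, and rho with whole transcript length was −0.758 and −0.727. Over those genes rho with coding length was −0.612 in knockdown and −0.622 in scrambled neurons, stronger than with the 3′ untranslated region. In the carriers rho with whole transcript length was −0.78 and −0.69, and with coding length −0.226 and −0.222. For each of the 4 pairings of a long-tail with a total library, rho over the members lay between −0.819 and −0.541 in knockdown and between −0.777 and −0.399 in scrambled neurons. Tail length itself was not measured, and the part of transcript length in the fraction differences was not tested.

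**Figure D4:**
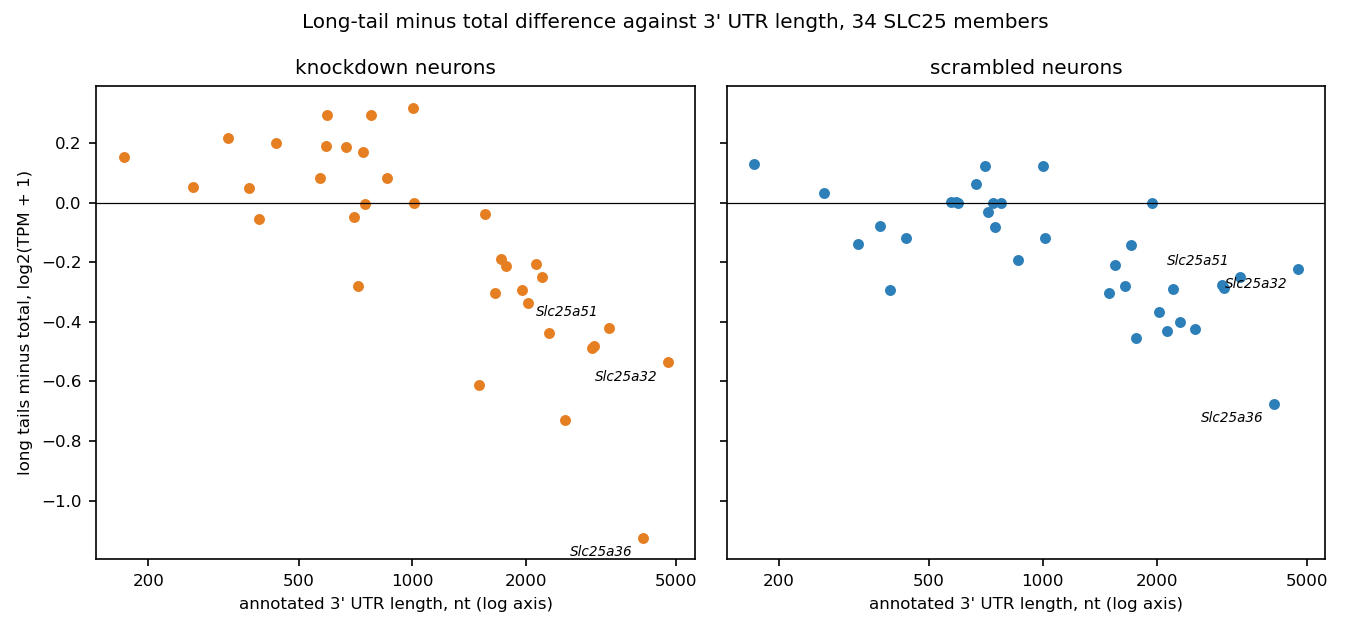
Of the 35 tested members, 34 are placed by the length of the annotated 3′ untranslated region (log axis, nucleotides) and by the long-tail minus total difference on the log2(TPM + 1) scale, in knockdown (left) and scrambled (right) neurons. Members with longer regions lie lower in both, and Slc25a36 lies lowest at −1.12 and −0.67.

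CCR4-NOT can be brought to an mRNA by Pumilio proteins, which bind the RNA form of TGTANATA. The motif was searched on the transcript strand of the 3′ untranslated regions, and 7 of 35 tested members (20%) held it, as did 25.4% of the 12439 tested genes with such a region. It was present in 4 of the 9 members that were lower in long tails without overlap in both kinds of neuron (44.4%) and in 3 of the other 26 (11.5%). Of these 3, Slc25a30 and Slc25a46 were also lower in mean, at −0.73 and −0.48 in knockdown and −0.42 and −0.29 in scrambled neurons. The third, Slc25a26, was higher in mean in both, at 0.32 and 0.12. The split into 9 and 26 thus rests on overlap and not on direction alone. The 9 regions were also the longer ones by median, as given above. The cytoplasmic polyadenylation element TTTTAT was in 19 of 35 members (54.3%) and in 54.3% of all genes, and it was present in 9 of the 9 members (100%) and in 10 of the other 26 (38.5%), so the Pumilio motif was not the only one that was more frequent in the 9. A match is a description and not a bound site. The matches of those 4 members are printed because they belong to mRNAs that were lower in long tails, from the GENCODE M21 transcripts, 24 bases each, written as DNA with the motif in capitals:
Slc25a32 site 1: gcaatattTGTAAATAatttgatg
Slc25a32 site 2: ctatttttTGTAAATAaatcatta
Slc25a32 site 3: taaaattcTGTAGATAacaacatg
Slc25a32 site 4: gtaataaaTGTAAATAatatgtaa
Slc25a16: ttttttcaTGTATATAaatatttc
Slc25a37: aaagtttaTGTACATAaaagtacc
Slc25a51: agcagaatTGTACATAcatagtat

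All 7 lie in 3′ untranslated exons on GRCm38. The sites of Slc25a32 are at chr15:39095660-39095683, chr15:39094894-39094917, chr15:39092116-39092139 and chr15:39091347-39091370 on the minus strand. That of Slc25a16 is at chr10:62946156-62946179 on the plus strand, that of Slc25a37 at chr14:69244487-69244510 on the minus strand and that of Slc25a51 at chr4:45396301-45396324 on the minus strand. In knockdown compared with scrambled neurons these 4 mRNAs did not share a direction: in total RNA the differences were −0.11 for Slc25a32, 0.34 for Slc25a16, 0.31 for Slc25a37 and −0.18 for Slc25a51. The regions of Slc25a36 and Slc25a39 held no match in this window.

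Whether the knockdown difference itself differed between the fractions was asked with the interaction, which subtracts the total RNA difference from the long-tail difference. Of the 35 tested members 22 were above 0 and 13 below, with a median of 0.08, against −0.02 over all tested genes. Limma called 0 members and 0% of all genes, and at an unadjusted p under 0.05 there were 0 members, where 0.877% of all tested genes passed, 0.395% higher and 0.482% lower. The widest values were −0.45 for Slc25a36 (SE 0.41) and 0.35 for Slc25a28 (SE 0.302), each with an adjusted p of 1.00. The iron carrier Slc25a28 had 17 and 26 TPM in knockdown long tails, against 18 and 20 TPM in scrambled long tails, and 19 and 17 TPM in knockdown total libraries, against 22 and 20 TPM in scrambled total libraries, with overlap in long tails and none in total RNA. Its interaction was 0.0618 without knockdown long-tail library 2 and 0.647 without library 1. Slc25a32 was at −0.31 (95% limits −0.84 to 0.21) and Slc25a37 at −0.21 (95% limits −0.68 to 0.26), so a difference of that size between the fractions was not detectable with 2 libraries a group. Without knockdown long-tail library 2 these were −0.152 and −0.113. Other libraries moved them too: Slc25a32 was −0.474 without knockdown long-tail library 1 and −0.202 without knockdown total library 2, and Slc25a37 was −0.124 without scrambled total library 2.

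Among other genes of carrier biology, those of the import route were measured in full, with 14 of 14 tested. In total RNA 8 were higher, 5 lower and 1 equal in knockdown, with a median difference of 0.04, and in long tails 8 were higher and 6 lower, with a median of 0.10. Limma called 0 of 14 in each. Tomm70a, the outer-membrane receptor that recognises carrier precursors, had 87 and 104 TPM in knockdown total libraries, against 50 and 50 TPM in scrambled total libraries. In long tails Tomm70a had 65 and 61 TPM in knockdown, against 38 and 48 TPM in scrambled libraries. Both fractions were higher without overlap, at 0.91 (SE 0.1525, adjusted p = 0.295 by limma) and 0.55 (adjusted p = 0.498). Of all tested genes, 2.71% were higher without overlap in both fractions. Agk, a TIM22 complex subunit, had 29 and 26 TPM in knockdown total libraries, against 36 and 35 TPM in scrambled total libraries (difference −0.36, adjusted p = 0.777 by limma).

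Of 3 tested carriers under other names (Ucp2, Mtch1 and Mtch2), 3 were lower in total RNA and 3 higher in long tails, with medians of −0.02 and 0.14. Ucp1 and Ucp3 were listed at 0, Ucp2 had 16 and 5 TPM in knockdown total libraries, against 15 and 7 TPM in scrambled total libraries, and the carrier-fold outer-membrane protein Mtch2 had 119 and 106 TPM in knockdown total libraries, against 117 and 108 TPM in scrambled total libraries. Of 7 pyruvate carrier and sideroflexin genes, 3 were higher, 3 lower and 1 equal in total RNA, and 1 was higher, 5 lower and 1 equal in long tails. Of 8 genes of the outer-membrane channel and energy transfer, 2 were higher and 6 lower in total RNA and 5 higher and 3 lower in long tails. The channel gene Vdac3 had 233 and 208 TPM in knockdown total libraries, against 179 and 179 TPM in scrambled total libraries (difference 0.30, adjusted p = 0.924 by limma). Of 8 calcium uniporter and exchange genes, 4 were higher and 4 lower in total RNA, and 3 higher and 5 lower in long tails. Limma called 0 members of these lists in either fraction.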

How the data were processed

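Poly(A) RNA was sequenced in 8 libraries. Tools named per the submitters' processing notes are RSEM, TopHat2, CASAVA, DESeq and DESeq2, with build mm10, and no versions or roles are stated. The deposited gene table gives TPM that the authors rounded to whole numbers, treated here as a score, with column sums from 999689 to 999809. In the 2 deposited comparison tables the authors give log2 fold changes and adjusted p-values for genes past their threshold; the deposited log2 fold change was turned so that positive means higher in knockdown, since its sign was opposite to TPM in all 201 entries. The authors' deposited mean of normalized counts, a signal, and their test statistic, a score, were not used.

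Genes averaging 1 TPM or more (13681) were put on the log2(TPM + 1) scale. One limma model (3.58.1, R 4.3.3, with 4 group means and eBayes with trend) gave 5 two-sided contrasts, adjusted by Benjamini-Hochberg over all tested genes. The model was tested on simulated data with larger differences than any member had, and not at the size seen in the members. An exact permutation test of 2 libraries against 2 cannot give a p under 0.333 and was not run. Positions and 3′ untranslated regions are from GENCODE M21. Differences understate the change of low genes. The strand used in counting is not stated, so Slc25a11, Slc25a21, Slc25a25, Slc25a26 and Slc25a35, whose exons overlap a gene of the table on the opposite strand, are uncertain. So are members with near-identical copies in the genome, since RSEM can divide shared reads. Among the gene names, 27 stood as dates. One member is in the counts and medians but is not reported here by name or in the plots. The members and lists were chosen with earlier results of these data known. Members were given library by library if among the 6 highest means, the 3 smallest p per direction and contrast, or in the authors' deposited tables; some others were added after their values were seen.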

Additional observations from a re-analysis of the deposited data

How the results depend on the processing

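The alternatives were a pseudocount of 0.5 or 5, no filter or a mean of at least 10 TPM, quantile normalization and Rn45s removed. Others were only the libraries of a contrast, no trend, a replicate block, and each library left out. Of the family's counts and medians, 161 values stayed the same and 7 moved. Some medians could not move: no trend, a replicate block and only the libraries of a contrast leave each difference as it was. So does leaving out a library that is not in the contrast. A median stayed the same if it shifted by less than the SD between replicates, 0.124. A change of sign could thus count as the same, as for the knockdown difference in long tails (−0.01, and 0.0566 with quantile normalization). A count of called members stayed the same if it was still 0. With quantile normalization the median of long tails minus total was 0.124 in knockdown and 0.0622 in scrambled neurons, against −0.05 and −0.14 as reported, so its sign depends on scaling. With each library left out, the median ran from −0.22 (without knockdown total library 2) to 0.10 (without knockdown total library 1) for long tails minus total in knockdown neurons, from −0.24 to −0.07 for the same in scrambled neurons, from −0.15 (without knockdown long-tail library 2) to 0.0471 (without knockdown long-tail library 1) for the knockdown difference in long tails, from −0.16 to −0.05 for that in total RNA and from −0.04 to 0.20 for the interaction. Members called ran from 0 to 3 for long tails minus total in knockdown neurons, the 3 (Slc25a30, Slc25a32 and Slc25a51) being called without knockdown long-tail library 1, when 2125 of all genes were called. In the other 4 contrasts 0 members were called with any library left out. With the 4 long-tail libraries alone, 1 member (Slc25a24, at 1 or 2 TPM) was called in the knockdown comparison.

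Among named members, 3 values changed sign, all close to 0: long tails minus total in scrambled neurons was −0.067 for Slc25a26 without scrambled total library 1 and −0.0518 without scrambled long-tail library 2, and −0.0545 for Slc25a3 without the same long-tail library. With each library left out it ran from −0.067 to 0.3115 for Slc25a26 and from −0.0545 to 0.3152 for Slc25a3. For Slc25a39 in total RNA the difference ran from −1.26 to −0.72 and its adjusted p from 0.231 to 1.00 over all alternatives. Calls over all genes were 0 in each contrast as reported. Among alternatives that kept 2 libraries a group, they reached 59 for the knockdown difference in total RNA and 83 for the interaction. Both came with no filter, which lets in genes averaging under 1 TPM, and no other setting called a gene for the interaction. With only the libraries of a contrast they reached 83 for the knockdown difference in long tails. In that setting they reached 97 and 87 for the fraction difference in knockdown and scrambled neurons. The causes were not tested. The labels state no pairing. Deviations of same-numbered libraries correlated between groups at 0.605, 0.569, 0.422, 0.407, 0.218 and −0.108. With the replicate number as a block 0 members and 0 genes were called in each contrast. In this balanced design the block cannot change a difference or a median, only the SE. The SE fell from 0.323 to 0.145 for the knockdown difference of Slc25a29 in long tails. It rose from 0.290 to 0.308 for long tails minus total of Slc25a36 in knockdown neurons. Whole-number TPM and 2 libraries a group limit what can be seen for members of a few TPM.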

Other observations

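Regulators and markers of mitochondrial content were measured beside the carriers, with 10 of 10 genes tested. In total RNA 2 were higher and 8 lower in knockdown neurons (median difference −0.12), and in long tails 2 were higher and 8 lower (median −0.21), where the medians over all tested genes were −0.07 and −0.10. Limma called 0 of the 10 in either fraction. Esrra, a nuclear receptor that acts on genes of oxidative metabolism, had 21 and 17 TPM in knockdown total libraries, against 27 and 26 TPM in scrambled total libraries. In long tails Esrra had 17 and 21 TPM in knockdown libraries, against 25 and 25 TPM in scrambled libraries. The coactivator gene Ppargc1a had 15 and 7 TPM in knockdown long tails, against 17 and 19 TPM in scrambled long tails, and 18 and 22 TPM in knockdown total libraries, against 23 and 27 TPM in scrambled total libraries. The chaperonin gene Hspd1 had 196 and 191 TPM in knockdown total libraries, against 120 and 154 TPM in scrambled total libraries. In long tails Hspd1 had 140 and 212 TPM in knockdown libraries, against 113 and 149 TPM in scrambled libraries. Libraries did not overlap for Esrra and Ppargc1a in either fraction, where 9.49% of all tested genes were lower without overlap in both. For Hspd1 they did not overlap in total RNA, where 8.68% of all tested genes were higher without overlap, but they overlapped in long tails. The parts of these genes in the carrier levels were not tested.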
